A study of Homo sapiens with 4 samples.

Results

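The genes described are 10 that mark megakaryocytes and platelets, chosen by symbol: ITGA2B, GP1BA, GP1BB, GP9, GP6, PF4, PPBP, VWF, TUBB1 and SELP. Of these 10 genes, 8 had a row in the expression table of 32673 genes and 6 were expressed highly enough to be tested among 15519 genes. The expression of GP1BB and PF4 was not analysed here, and PPBP and VWF lay under the limit of a mean FPKM of 0.5. FPKM are fragment counts scaled by the length of each gene and the depth of each library.

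RNA sequencing compared imatinib-sensitive and imatinib-resistant cells of one leukaemia model. Both groups derive from TF1, a human erythroleukaemia line that grows on GM-CSF, made to carry p210 BCR-ABL, the fusion kinase of chronic myeloid leukaemia (CML) that imatinib inhibits. TF1-BA cells are the sensitive parent, and TF1-BAR cells are the derivative that became resistant during long culture with the drug, with 2 libraries from each line and 10000000 cells per library. The 2 TF1-BAR libraries are titled VECTOR in the labels, and a vector, if carried, cannot be told apart from resistance.

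The labels give 2 ng/mL of GM-CSF in the medium of both lines and 2 uM of imatinib in the culture of the resistant cells, while the paper's methods state another GM-CSF concentration. Neither says if imatinib was still in the medium at RNA extraction. Both lines are single established lines, and nothing says that the 2 libraries of a line came from separate cultures. P-values therefore measure the spread between these libraries, which may be technical. The libraries held 15465497 to 18042299 fragments. The receptor and fusion partner genes of the model were all expressed, with CSF2RB, the beta chain of the GM-CSF receptor, at 44.9 to 59.1 FPKM and ABL1 at 41.1 to 90.3 FPKM. Over all tested genes, 474 rose and 263 fell in TF1-BAR by both thresholds, which are an adjusted p under 0.05 and a log2 fold change of 1 or more in size, and quantile normalization gave a split of 359 and 338.

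Platelets are shed by megakaryocytes, large marrow cells that arise from a progenitor shared with the red cell lineage. On the platelet surface the GPIb-IX-V complex catches von Willebrand factor at injured vessel walls, GPVI binds collagen, and the integrin alphaIIb-beta3 binds fibrinogen and links platelets to each other. Chemokines, von Willebrand factor and P-selectin are stored in granules and brought out on activation. Many of these genes are switched on by GATA, ETS and RUNX factors, and TF1 cells keep some features of the shared erythroid and megakaryocytic progenitor.

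The promoters of 7 of the 10 genes were found in the RefSeq promoter table of build GRCh38.p14, and those of GP1BA, PF4 and VWF were not. They are shown because ETS and GATA factors are the textbook regulators of these genes and because 4 of the windows carry the same 7 letters. The shares below therefore only describe these windows, and an excess of the letters was not tested. Only the exact letters given were sought, so looser forms were not counted. The windows searched ran from 250 bases before the RefSeq start of transcription to 50 bases from it. The ETS letters CACTTCC were sought on both strands, and they stood in 4 of the 7 windows and in 11.2% of all 35116 promoters in the table. GATA letters were sought on both strands as AGATAA and, with T as the opening letter, as TGATAA. The forms closing with G were added, which read AGATAG for the first and, for the second of them, TGATAG. These letters stood in 5 of the 7 windows and in 25.0% of all promoters. Both kinds stood in 3 of the 7 windows and in 2.37% of all promoters, and no match overlapped another in these windows. The 4 windows with the ETS letters are printed 5' to 3' on the strand of the gene, from 230 bases before the start to 20 bases from it, with ETS and GATA letters in capitals.
ITGA2B: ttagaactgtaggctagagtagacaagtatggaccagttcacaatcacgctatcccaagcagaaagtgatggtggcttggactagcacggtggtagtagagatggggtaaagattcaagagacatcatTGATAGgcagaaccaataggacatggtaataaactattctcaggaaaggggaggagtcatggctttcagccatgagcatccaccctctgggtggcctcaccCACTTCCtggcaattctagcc
GP9: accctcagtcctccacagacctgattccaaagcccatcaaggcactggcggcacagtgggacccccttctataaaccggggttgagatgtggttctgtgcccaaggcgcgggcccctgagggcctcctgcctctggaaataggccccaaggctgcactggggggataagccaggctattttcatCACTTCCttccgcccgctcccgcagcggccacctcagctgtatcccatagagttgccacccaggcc
GP6: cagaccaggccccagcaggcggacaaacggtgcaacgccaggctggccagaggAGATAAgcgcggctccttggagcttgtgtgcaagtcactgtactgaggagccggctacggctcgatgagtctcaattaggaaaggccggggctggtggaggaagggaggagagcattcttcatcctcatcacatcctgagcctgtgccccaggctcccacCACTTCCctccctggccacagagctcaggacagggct
PPBP: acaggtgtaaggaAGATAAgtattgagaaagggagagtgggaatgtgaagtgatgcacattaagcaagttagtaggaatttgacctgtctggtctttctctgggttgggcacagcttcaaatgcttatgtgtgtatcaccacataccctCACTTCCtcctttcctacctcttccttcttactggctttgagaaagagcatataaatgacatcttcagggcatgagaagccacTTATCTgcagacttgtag
The ITGA2B window is chr17:44389630-44389879 on the minus strand, and its RefSeq start lies 144 bases upstream of the gene start in the expression table. GP9 is chr3:129060549-129060798 on the plus strand with starts 12 bases apart. GP6 is chr19:55038245-55038494 on the minus strand with the same start, and PPBP is chr4:73988171-73988420 on the minus strand with starts 7 bases apart. The ETS letters began 1 base before the start in ITGA2B, 46 bases before it in GP9, 17 bases before it in GP6 and 81 bases before it in PPBP. GP1BB and SELP held only GATA letters, in reverse orientation, and TUBB1 held neither kind. These matches describe the letters and are not binding sites.

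**Figure D1:**
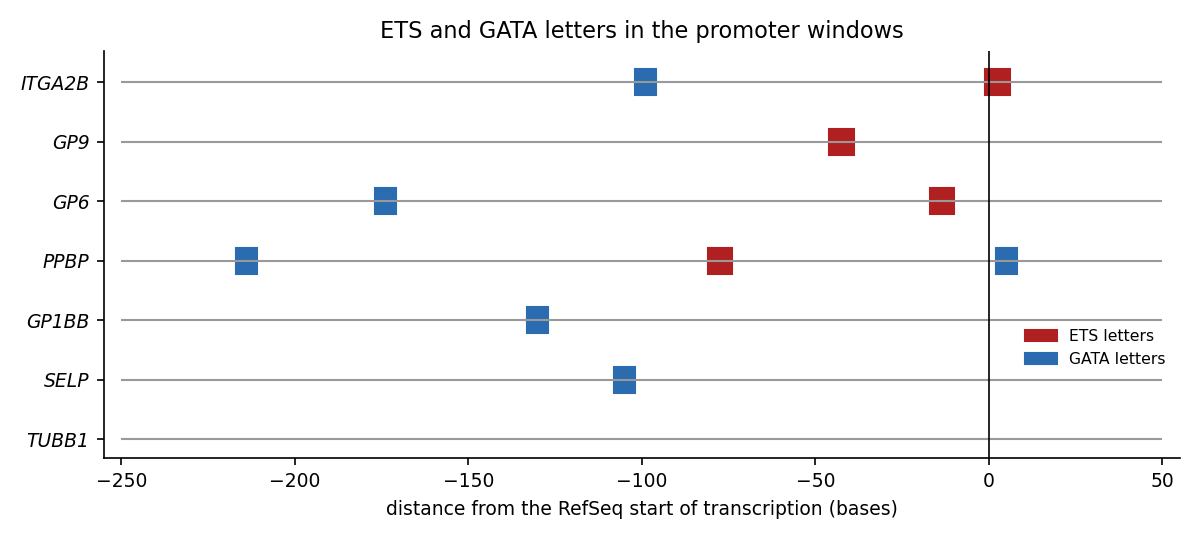
Positions of the ETS letters (red) and GATA letters (blue) in the 7 promoter windows, with the distance from the RefSeq start of transcription in bases on the x axis and 1 gene per line. ITGA2B, GP6 and PPBP hold both kinds, GP9 holds ETS letters only, GP1BB and SELP hold GATA letters only, and TUBB1 holds neither.

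Levels of the 8 genes spanned 3 groups that stayed apart in every library. ITGA2B alone exceeded 100 FPKM, GP1BA, GP9 and GP6 lay between 7.54 and 22.6 FPKM, and SELP, TUBB1, VWF and PPBP lay at or below 1.87 FPKM. GP1BA was the gene with the widest difference between the lines, at 2.49-fold higher FPKM in the TF1-BAR cells. ITGA2B, GP9 and SELP were higher by smaller steps, TUBB1 was lower, and GP6 did not pass the test. By the adjusted p alone, 4 of the 6 tested genes rose, beside 16.3% of all tested genes that rose, and 1 fell, beside 10.5% that fell. By both thresholds 1 gene rose, beside 3.05% of all tested genes, and 0 fell in limma, beside 1.69%. With an unadjusted p in place of the adjusted one, 0 fell as well, and by limma voom 1 fell, TUBB1. The 2 libraries of a line did not overlap those of the other line in 4 genes that were higher and 2 that were lower, beside 40.9% and 28.4% of all tested genes. The median log2 fold change was 0.47 over the 6 tested genes and 0.07 over all 15519. In bulk RNA of this kind, more cells that express a gene and more RNA per cell cannot be told apart.

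**Figure D2:**
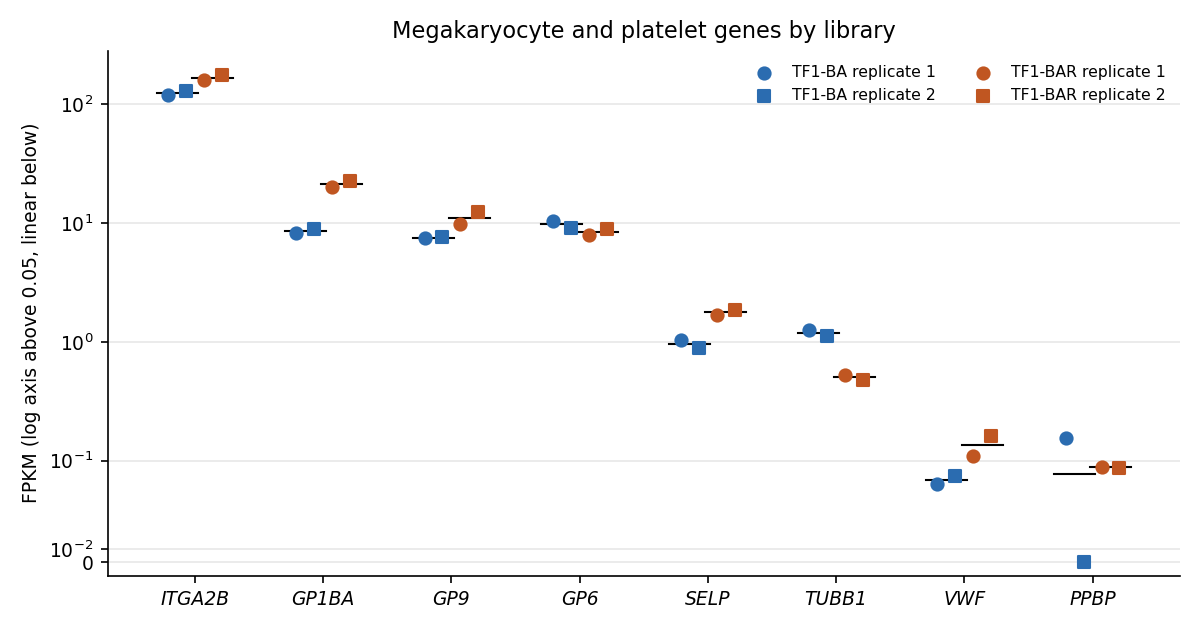
FPKM of the 8 genes with a row in the table (y axis, logarithmic above 0.05 and linear below), for TF1-BA (blue) and TF1-BAR (orange) libraries, with circles for replicate 1, squares for replicate 2 and short lines for the mean of each line. GP1BA shows the clearest separation among the abundant genes, TUBB1 is the reverse, and the PPBP libraries, one of them at 0, lie across each other.

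These calls rested on few libraries. By the adjusted p alone, 0 of the 6 genes passed without TF1-BA replicate 1 and 0 without TF1-BA replicate 2, while 3 passed without TF1-BAR replicate 1 (ITGA2B, GP1BA and GP9) and 1 without TF1-BAR replicate 2 (GP1BA). With no filter on low values, GP1BA alone passed. The count of all genes by both thresholds also moved, from 737 to 144 without TF1-BA replicate 1, 42 without TF1-BA replicate 2 and 427 without TF1-BAR replicate 2. Without one TF1-BA library the other is assumed to vary like the TF1-BAR pair. None of the 6 genes changed direction in any of the 14 alternatives, and TUBB1 was under the limit of one of them, a mean FPKM of 1.

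GP1BA had the largest log2 fold change of the 3 chains of the GPIb-IX-V complex that were tested. It encodes the alpha chain that binds von Willebrand factor and lies at chr17:4932297-4935030 on the plus strand (GRCh38). Its FPKM were 8.27 and 8.95 in TF1-BA and 20.3 and 22.6 in TF1-BAR. Both resistant libraries were thus well above both sensitive ones, and the lines did not overlap. The recovered fragments behind these values were 373, 346, 800 and 907 in the same order. The mean rose from 8.61 ± 0.48 (SD, n = 2) to 21.4 ± 1.6 FPKM, and the log2 fold change on the log2(FPKM + 0.5) scale was 1.27 ± 0.09 (SE) with an adjusted p of 0.00409 in limma. GP1BA ranked 295 of 15519 tested genes from the highest log2 fold change down. Its call was lost without TF1-BA replicate 1 (adjusted p = 0.0521) and without TF1-BA replicate 2 (adjusted p = 0.0527), at log2 fold changes of 1.21 and 1.32. Of the genes beside it in the table, CHRNE, 29223 bases away, went from 0.860 and 0.832 to 1.66 and 1.72 FPKM. It rose by 0.70 on the log2(FPKM + 0.5) scale (adjusted p = 0.0222), which understates the change of a gene at this level, and SLC25A11, 2100 bases away, had a log2 fold change of -0.10 (adjusted p = 0.379).

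GP9 encodes the small chain that joins GPIb in the complex, and lies at chr3:129060767-129062406 on the plus strand. Its FPKM were 7.54 and 7.56 in TF1-BA against 9.78 and 12.5 in TF1-BAR. The sensitive pair was nearly equal, and both resistant libraries lay above it while differing more between themselves. The log2 fold change was 0.52 ± 0.13 (SE) with an adjusted p of 0.0408, from 121 and 104 fragments in the sensitive libraries and 137 and 178 in the resistant ones. It missed the test under quantile normalization (adjusted p = 0.0502), with one spread for all levels (adjusted p = 0.0690) and with no filter on low values (adjusted p = 0.118). Its neighbours RAB43 and AC108673.1 were under the limit for testing.

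GP5, the chain held most loosely in the complex, was added here after its values were seen. Its FPKM were 3.53 and 3.88 in TF1-BA and 4.74 and 4.68 in TF1-BAR. The lines did not overlap, but the log2 fold change of 0.31 had an adjusted p of 0.0604. It passed when FPKM were rescaled to TPM (0.40, adjusted p = 0.0371) and by limma voom (0.35, adjusted p = 0.0435). Within a library, the FPKM of GP1BA exceeded that of GP9 by a ratio of 1.10 and 1.18 in the sensitive cells and 2.08 and 1.81 in the resistant cells. The ratio of GP1BA to GP5 went from 2.34 and 2.31 to 4.28 and 4.82. Both ratios separated the lines in every library, and the exact two-sided permutation test gave p = 0.333 for each, the smallest value that 2 against 2 libraries allow. SEPTIN5, the gene just upstream of GP1BB whose transcripts can run into it, was at 0.894 to 1.26 FPKM with a log2 fold change of -0.23 (adjusted p = 0.283).

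ITGA2B encodes the alphaIIb chain of the platelet fibrinogen receptor, also known as CD41, and was the most abundant of the genes. It lies at chr17:44372180-44389505 on the minus strand. Its FPKM were 119.8 and 128.3 in TF1-BA and 158.5 and 175.8 in TF1-BAR. Every resistant library stood above every sensitive one, by a ratio of means of 1.35. The log2 fold change was 0.43 ± 0.08 (SE) with an adjusted p of 0.0204, from 11018 to 15688 fragments per library. Its adjusted p reached 0.0738 with no filter on low values and 0.0536 when the spread was not allowed to follow the mean level. GPATCH8, on its right in the genome, had a log2 fold change of 0.10 (adjusted p = 0.367), and the pseudogene RPL7L1P5 on its left was under the limit for testing.

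ITGB3, the beta3 chain that pairs with alphaIIb, was also added after its values were seen. Its FPKM were 6.03 and 5.22 in TF1-BA and 5.47 and 6.05 in TF1-BAR. The lines overlapped, with a log2 fold change of 0.03 (95% interval -0.24 to 0.30, adjusted p = 0.840) that turned to -0.03 under quantile normalization. The FPKM of ITGA2B was 19.9 and 24.6 times that of ITGB3 in the sensitive libraries and 29.0 and 29.1 times in the resistant libraries (exact two-sided permutation p = 0.333). The genes with the profile most like that of ITGA2B over the 4 libraries were RPL18AP3, EIF3E and RPL3P4, at root mean square differences of 0.07 to 0.08 of log2(FPKM + 0.5). Those most like GP1BA were CNRIP1, MAPK11 and STX3, at 0.04, 0.07 and 0.09. CNRIP1, for example, measured 8.70 and 8.68 FPKM in the sensitive and 19.8 and 22.6 FPKM in the resistant libraries.

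GP6 encodes the collagen receptor GPVI and lies at chr19:55013705-55038264 on the minus strand. Its FPKM were 10.5 and 9.02 in TF1-BA and 7.86 and 8.84 in TF1-BAR. Both resistant libraries were below both sensitive ones, by a narrow margin between 9.02 and 8.84 FPKM. The log2 fold change of -0.21 ± 0.11 (SE) did not pass the test (adjusted p = 0.208), and its 95% interval ran from -0.49 to 0.07. It was -0.11 without TF1-BA replicate 1 and -0.13 without TF1-BAR replicate 1. An antisense gene, AC011476.3, covers the whole of GP6, and its own log2 fold change was 0.52 (adjusted p = 0.0192). The library kit is not named as a strand-marking one and counting by strand is not stated. Reads where GP6 and this antisense gene overlap therefore cannot be assigned by strand. AC011476.2, on the same strand and inside GP6, had a log2 fold change of 0.34 (adjusted p = 0.109). The flanking genes had log2 fold changes of 0.50 for RDH13 (adjusted p = 0.0316) and 0.40 for NLRP2 (adjusted p = 0.173).

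FCER1G, the Fc receptor gamma chain through which GPVI signals, measured 31.7 and 34.3 FPKM in TF1-BA and 30.7 and 33.7 FPKM in TF1-BAR. The lines overlapped, and the log2 fold change of -0.04 (adjusted p = 0.770) became 0.03 when FPKM were rescaled to TPM. FCER1G exceeded GP6 in every library, by a ratio of 3.04 and 3.80 in TF1-BA against 3.91 and 3.81 in TF1-BAR, and the lines were apart by a narrow margin (exact two-sided permutation p = 0.333, the smallest possible).

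SELP encodes P-selectin, the granule membrane protein that binds leukocytes once it reaches the surface of platelets or endothelium. It lies at chr1:169588849-169630193 on the minus strand. Its FPKM were 1.03 and 0.889 in TF1-BA and 1.69 and 1.87 in TF1-BAR. Both resistant libraries were higher, on 93 and 105 fragments against 65 and 48. The log2 fold change was 0.64 ± 0.14 (SE) with an adjusted p of 0.0298, and the adjusted p was 0.0656 to 0.150 when any one library was left out. F5, the coagulation factor V gene on its left, was under the limit for testing at 0.318 and 0.217 FPKM in the sensitive and 0.0532 and 0.130 FPKM in the resistant libraries. C1orf112 on its right had a log2 fold change of 0.09 (adjusted p = 0.534).

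VWF encodes von Willebrand factor, the adhesive protein of platelet alpha granules and of endothelial storage bodies, at chr12:5948874-6124770 on the minus strand. Its FPKM were 0.0640 and 0.0747 in TF1-BA and 0.110 and 0.162 in TF1-BAR. These values stood for 12 and 12 fragments against 18 and 27, and the resistant libraries were the higher pair. VWF was too low to be tested in the main comparison. With no filter on low values its log2 fold change was 0.16 (adjusted p = 0.339), a scale on which the pseudocount of 0.5 outweighs the values. A pseudogene that is nearly identical to a stretch of VWF can take or give reads, which makes these low values uncertain. The noncoding genes on either side, AC007848.1 and AC005845.1, were at or below 0.0990 FPKM.

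PPBP encodes platelet basic protein, the precursor of the chemokine CXCL7 and one of the most abundant platelet transcripts. It lies at chr4:73987038-73988197 on the minus strand. It measured 0.155 and 0 FPKM in TF1-BA and 0.0887 and 0.0870 FPKM in TF1-BAR, on 2, 0, 1 and 1 fragments. These counts lie under the floor of 3 fragments, which stood at 0.233 to 0.271 FPKM of PPBP, so no fold change is given. A level below this floor was not detectable at this depth. Its promoter, printed above, carries the same ETS letters as that of ITGA2B.

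PPBP lies in a run of chemokine genes on chromosome 4. Of the 9 genes listed for this cluster, 5 had a row and 3 were tested, all of them neutrophil-attracting chemokines. All 3 fell by both thresholds, beside 1.69% of all tested genes. CXCL2 went from 4.29 and 5.13 FPKM to 0.931 and 1.37 FPKM, a log2 fold change of -1.67 ± 0.17 (SE, adjusted p = 0.00704). CXCL3, the nearest gene of the table to the right of PPBP, went from 2.37 and 2.62 to 0.515 and 0.617 FPKM, a log2 fold change of -1.49 (adjusted p = 0.00603). CXCL8, which encodes interleukin 8, went from 5.31 and 7.28 to 2.12 and 1.70 FPKM, a log2 fold change of -1.49 (adjusted p = 0.00901). No resistant library of these 3 genes reached a sensitive one, and 28.4% of all tested genes were lower without overlap. CXCL1, the nearest to its left, was under the limit for testing on 1 to 13 fragments, and its lines overlapped. The 3 calls dropped to 0 without TF1-BA replicate 1, to 0 without TF1-BA replicate 2 and to 2 without TF1-BAR replicate 2.

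TUBB1 encodes the beta1 tubulin of the microtubule ring under the platelet membrane and is largely restricted to the megakaryocytic lineage. It lies at chr20:59019254-59026654 on the plus strand. Its FPKM were 1.27 and 1.13 in TF1-BA and 0.526 and 0.480 in TF1-BAR. Both resistant libraries lay well below both sensitive ones, on 29 and 27 fragments against 80 and 61. Mean FPKM were 2.38-fold lower in the resistant cells. On the log2(FPKM + 0.5) scale this was -0.76 ± 0.16 (SE) with an adjusted p of 0.0304, short of the fold threshold. The log2 fold change was -1.10 with a pseudocount of 0.1 and -1.24 by limma voom on recovered fragments (adjusted p = 0.0317 and 0.00183), and TUBB1 was called by both thresholds there. On chromosome 20 the median log2 fold change over tested genes was 0.39, so TUBB1 fell on a chromosome whose genes were mostly higher. ATP5E overlaps TUBB1 by 1188 bases on the other strand at 19.0 to 24.6 FPKM with a log2 fold change of 0.29 (adjusted p = 0.0475), and reads in the overlap cannot be assigned by strand. PRELID3B on its right had a log2 fold change of 0.13 (adjusted p = 0.341), and CTSZ on its left was under the limit for testing.

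The other genes of platelet biology were taken from 5 lists by role, with 86 genes in all, of which 85 had a row and 77 were tested. By the adjusted p alone 20 of the 77 rose and 12 fell, beside 16.3% and 10.5% of all tested genes. By both thresholds 4 rose and 0 fell, beside 3.05% and 1.69%. Their median log2 fold change was 0.05, against 0.07 over all tested genes. The 4 genes past both thresholds were ERG, MECOM, MMRN1 and ADRA2A. The count of 4 dropped to 1 without TF1-BA replicate 1 and to 0 without TF1-BA replicate 2. Of the 32 genes past the adjusted p, 1 and 0 kept it in these fits, 28 kept it without TF1-BAR replicate 1, and 15 did when TF1-BAR replicate 2 was left out. With no filter on low values 20 of the 32 kept it, and 24 did when the spread was not allowed to follow the mean level. Among named genes, MPIG6B, TLN1, ACTN1, LCP2, NFE2, ETV6, GATA2 and IKZF5 were lost in both of these fits, and PTGIR, ANGPT1, RAB27B and JAK2 with no filter but not in the other. With all 4 libraries no gene of the 77 fell by both thresholds in limma, with an unadjusted p in place of the adjusted one, or by limma voom. Without TF1-BAR replicate 1, 1 gene did, IKZF5.

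**Figure D3:**
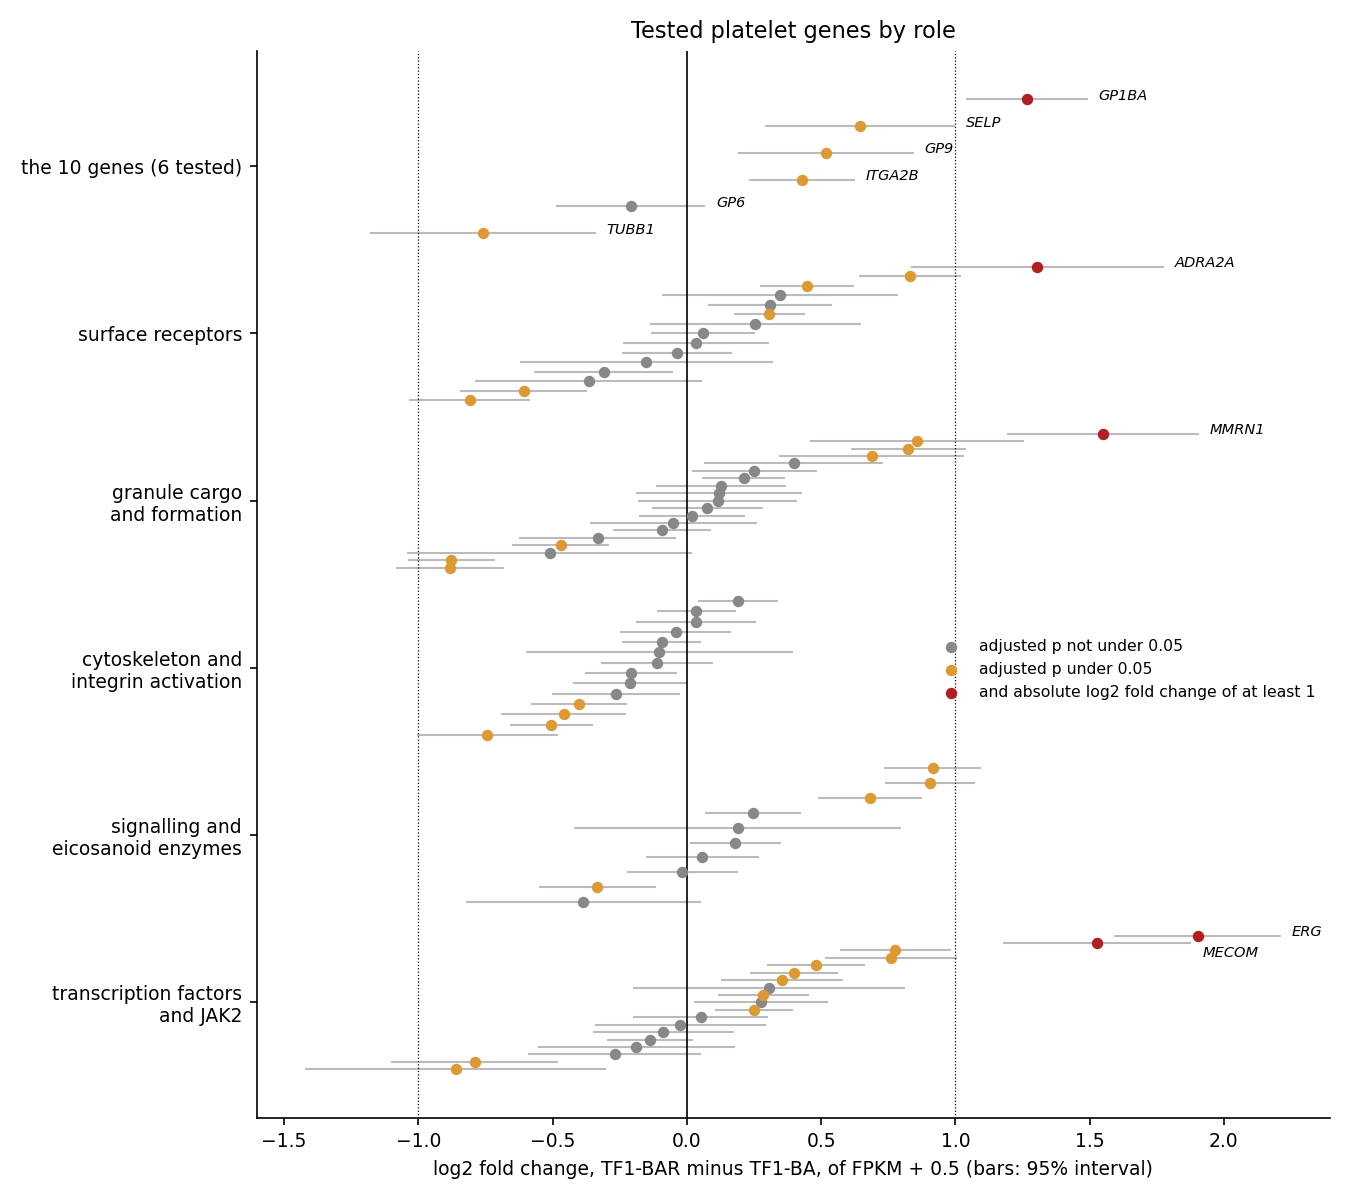
log2 fold change of TF1-BAR minus TF1-BA (x axis, on FPKM + 0.5) of the 6 tested genes and of the 77 tested genes in 5 lists by role, each point 1 gene with its 95% interval. Grey points did not pass the adjusted p, orange points passed it, and red points also changed by 1 or more on the log2 scale, namely GP1BA, ADRA2A, MMRN1, ERG and MECOM.

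The list of lineage transcription factors, held together with the kinase JAK2, had the most calls of the 5 lists. Of 19 genes, all tested, 9 rose and 2 fell by the adjusted p, beside 16.3% and 10.5% of all tested genes. The median log2 fold change was 0.28. ERG, an ETS factor of blood stem cells and megakaryocytes, measured 4.18 and 4.50 FPKM in the sensitive and 15.8 and 19.5 FPKM in the resistant libraries. Its log2 fold change was 1.90 ± 0.12 (SE, adjusted p = 0.00370), rank 55 of the 15519 tested genes. The adjusted p of ERG was 0.0489 without TF1-BA replicate 1 and 0.0527 without TF1-BA replicate 2. MECOM, a zinc finger factor of stem cells, measured 1.34 and 1.49 against 4.49 and 5.62 FPKM, with a log2 fold change of 1.53 ± 0.14 (SE, adjusted p = 0.00565). Neither gene overlapped between the lines. FLI1, the ETS factor required for late platelet genes, rose by 0.78 on the log2 scale (adjusted p = 0.00696), and the other risers were TAL1, RUNX1, LYL1, NFE2, ETV6 and GATA2, by 0.25 to 0.76. The calls of NFE2, ETV6 and GATA2 were lost with no filter on low values (adjusted p = 0.111 for NFE2 and 0.103 for GATA2) and with one spread for all levels (0.0853 and 0.101). NFE2 also missed the test with a replicate block (adjusted p = 0.0612), and GATA2 under quantile normalization (adjusted p = 0.0752) and with any 1 library left out (adjusted p = 0.0538 to 0.253).

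GATA2, a factor of early progenitors, was the most abundant gene of this list at 194.7 to 241.5 FPKM. MYB, a proliferation factor, and GATA1, the main factor of the erythroid and megakaryocytic lineages, had log2 fold changes of 0.28 (adjusted p = 0.0944) and -0.14 (adjusted p = 0.164), and MYB passed by limma voom (adjusted p = 0.0188). The 2 that fell were JAK2, a kinase that signals from cytokine receptors, by 0.79 on the log2 scale (adjusted p = 0.0139), and IKZF5, by 0.86 (adjusted p = 0.0442). The IKZF5 value was -1.18 without TF1-BAR replicate 1 (adjusted p = 0.0283) and -0.54 without TF1-BAR replicate 2 (adjusted p = 0.0618). Its call was also lost without TF1-BA replicate 1 (adjusted p = 0.191) or replicate 2 (adjusted p = 0.163), on the TPM scale (adjusted p = 0.0502), with one spread for all levels (adjusted p = 0.0715) and with no filter (adjusted p = 0.139). IKZF5 lies on chromosome 10, where the median over tested genes was -0.35.

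**Figure D4:**
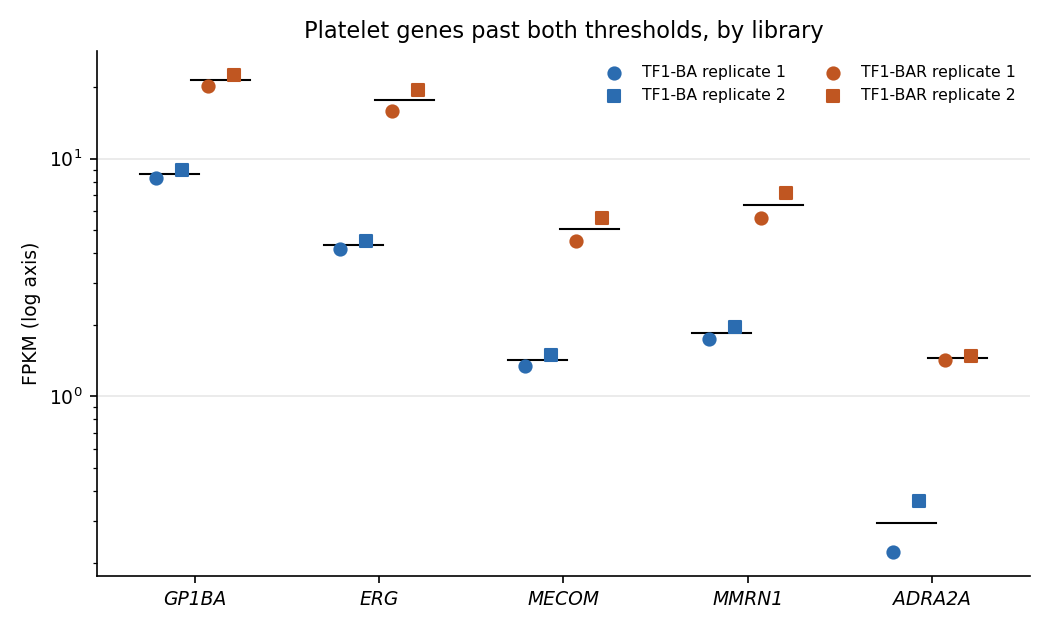
FPKM (y axis, logarithmic) of the platelet genes past both thresholds in TF1-BA (blue) and TF1-BAR (orange) libraries, with circles for replicate 1, squares for replicate 2 and short lines for the means. In each of the 5 genes both resistant libraries lie above both sensitive ones, and GP1BA is the most abundant, at 20.3 and 22.6 FPKM in the resistant cells.

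Surface receptors were mixed. Of 19 genes listed, 15 were tested. By the adjusted p 4 rose and 2 fell, beside 16.3% and 10.5% of all tested genes, and the median log2 fold change was 0.06. ADRA2A, the receptor through which adrenaline primes platelets, measured 0.222 and 0.363 FPKM in the sensitive and 1.42 and 1.48 FPKM in the resistant libraries. Its log2 fold change was 1.31 ± 0.18 (SE, adjusted p = 0.0118), on 15 and 21 against 84 and 89 fragments. At this low level the value followed the pseudocount, at 0.93 with 1 FPKM, which is short of the fold threshold, 2.01 with 0.1 FPKM and 2.35 by limma voom. ADRA2A was under the limit of a mean FPKM of 1. P2RX1, an ATP-gated channel, rose by 0.83 on the log2 scale (adjusted p = 0.00565), from 20.2 and 20.3 to 34.7 and 38.2 FPKM.

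The thrombin receptors parted. F2R, which encodes PAR1, rose by 0.45 on the log2 scale (adjusted p = 0.0140), from 27.0 and 25.3 to 35.0 and 36.7 FPKM. F2RL3, which encodes PAR4, went from 31.8 and 32.1 to 16.8 and 19.4 FPKM, a log2 fold change of -0.81 (adjusted p = 0.00750). The higher FPKM was thus that of F2RL3 in both sensitive libraries and that of F2R in both resistant ones, compared per length. These are RNA levels, and the receptor proteins were not measured here. MPIG6B, an inhibitory receptor of megakaryocytes, was the most abundant of the list at 218.9 to 275.1 FPKM and rose by 0.31 (adjusted p = 0.0174). PTGIR, the prostacyclin receptor that restrains platelets, fell by 0.61 (adjusted p = 0.0137). At the low end, P2RY12, CLEC1B and TREML1, 3 receptors of mature platelets, had at most 4 fragments in any library. The other receptor under the limit for testing was CD36, which binds thrombospondin, at 0.411 and 0.416 FPKM in the sensitive and 0.0690 and 0.0430 FPKM in the resistant libraries, on 75 and 65 against 11 and 7 fragments. Its mean FPKM was 7.38-fold lower in the resistant cells, and with no filter on low values its log2 fold change on the log2(FPKM + 0.5) scale was -0.72 (adjusted p = 0.0499).

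Granule cargo and granule formation held 22 genes, of which 19 were tested. By the adjusted p 4 rose and 3 fell, beside 16.3% and 10.5% of all tested genes, and the median log2 fold change was 0.11. MMRN1, the multimerin that stores factor V in granules, measured 1.74 and 1.96 FPKM in the sensitive and 5.65 and 7.17 FPKM in the resistant libraries. Its log2 fold change was 1.55 ± 0.14 (SE, adjusted p = 0.00565). RAB27B, NBEAL2 and ANGPT1 rose by 0.69 to 0.86 on the log2 scale. RAB27B and NBEAL2 serve granule release and alpha granule formation, and ANGPT1 encodes granule cargo.

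SRGN, the proteoglycan that packs granule chemokines, was among the 3 most abundant of this list with TGFB1 and CD63. It went from 126.6 and 132.2 FPKM to 68.1 and 72.4 FPKM, a log2 fold change of -0.88 ± 0.06 (SE, adjusted p = 0.00409). SPARC fell by 0.88 and HPS1 by 0.47 on the log2 scale. SRGN and HPS1 lie on chromosome 10, and their part in the shift of that chromosome was not tested. TGFB1 and CD63 had log2 fold changes of 0.02 (adjusted p = 0.871) and 0.21 (adjusted p = 0.0575), and CD63 passed on the TPM scale (adjusted p = 0.0298).

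The cytoskeleton and integrin activation list was the one without a riser. Of 16 genes, 14 were tested. By the adjusted p of limma 0 rose and 4 fell, beside 16.3% and 10.5% of all tested genes. The median log2 fold change was -0.16. At an unadjusted p under 0.05, 1 was higher and 6 were lower, and limma voom gave 0 and 6. The 4 were TPM1, TPM4, ACTN1 and TLN1, which encode tropomyosins, alpha actinin and talin, at log2 fold changes of -0.40 to -0.74. TPM4 went from 72.3 and 71.2 FPKM to 49.2 and 51.8 FPKM (adjusted p = 0.00895). FERMT3, the kindlin that activates platelet integrins, and FLNA, the filamin that anchors GPIb, had log2 fold changes of 0.19 (adjusted p = 0.0693) and 0.03 (adjusted p = 0.798). PDLIM1, a LIM protein of the actin cytoskeleton and the other of the 3 most abundant, lay at 67.0 to 84.7 FPKM with a log2 fold change of -0.21 (adjusted p = 0.121). FERMT3 passed when FPKM were rescaled to TPM (adjusted p = 0.0307) and under quantile normalization (adjusted p = 0.0480).

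The 10 signalling and eicosanoid genes were all tested. By the adjusted p 3 rose and 1 fell, beside 16.3% and 10.5% of all tested genes, and the median log2 fold change was 0.19. PTGS1, the cyclooxygenase that aspirin blocks in platelets, went from 26.3 and 25.4 FPKM to 47.4 and 50.2 FPKM, a log2 fold change of 0.90 ± 0.07 (SE, adjusted p = 0.00409). PLEK, the platelet substrate pleckstrin, rose by 0.92 and VAV1 by 0.68 on the log2 scale. LCP2, the adaptor SLP-76, fell by 0.33 (adjusted p = 0.0440). That call was lost on the TPM scale (adjusted p = 0.0721), with no filter (adjusted p = 0.104), with one spread for all levels (adjusted p = 0.0847) and with any 1 library left out (adjusted p = 0.109 to 0.242). BTK, the most abundant at 62.4 to 73.9 FPKM, had a log2 fold change of 0.18 (adjusted p = 0.104) and passed on the TPM scale (adjusted p = 0.0450).

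Markers of other cell types were read beside the platelet genes, and their lists differed. VWF and SELP are also made by endothelium. Of 10 endothelial markers 8 had a row and all 8 were tested. By the adjusted p 7 of these markers rose, beside 16.3% of all tested genes, and by both thresholds 4 rose, beside 3.05%. Their summed FPKM was 331 to 343 in the sensitive and 546 to 640.0 in the resistant libraries, and none was listed at 0. KDR, the receptor for VEGF, measured 9.90 and 9.70 against 35.5 and 45.5 FPKM (log2 fold change 1.98, adjusted p = 0.00384). CDH5, the cadherin that defines endothelial junctions, measured 0.733 and 0.628 against 3.28 and 3.40 FPKM (log2 fold change 1.70, adjusted p = 0.00409). PLVAP and ESAM rose by 1.46 and 1.10 on the log2 scale, TIE1 by 0.67, TEK by 0.89 and MMRN2 by 0.76. Of the 7 risers, 3 passed without TF1-BA replicate 1, 1 without TF1-BA replicate 2, 7 without TF1-BAR replicate 1, and 6 passed when TF1-BAR replicate 2 was left out. With no filter on low values 5 passed, and ESAM (adjusted p = 0.0539) and MMRN2 (adjusted p = 0.0552) did not. EGFL7, the most abundant at 138.4 to 189.0 FPKM, had a log2 fold change of 0.29 (adjusted p = 0.113). Without TF1-BAR replicate 1 it was 0.44 and passed (adjusted p = 0.0296), without TF1-BAR replicate 2 it was 0.14 (adjusted p = 0.147), and by limma voom it passed at 0.29 (adjusted p = 0.0229). TIE1, TEK, ESAM and KDR are also made by blood progenitors or megakaryocytes, and the part of these markers in the SELP and VWF values was not tested.

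**Figure D5:**
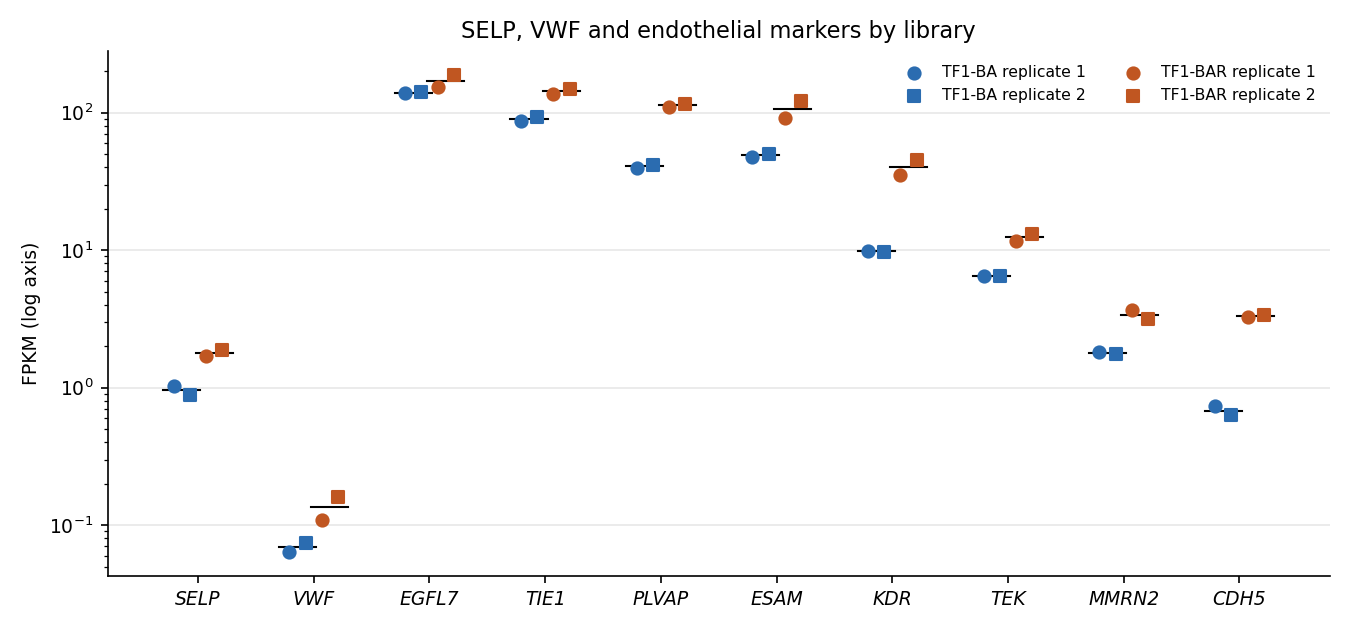
FPKM (y axis, logarithmic) of SELP, VWF and the 8 endothelial markers with a row, in TF1-BA (blue) and TF1-BAR (orange) libraries, with circles for replicate 1, squares for replicate 2 and short lines for the means. The resistant libraries lie above the sensitive ones in every gene shown, beside 40.9% of all tested genes. VWF stays below 0.2 FPKM while EGFL7, TIE1, PLVAP and ESAM reach over 90 FPKM.

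Of 9 erythroid markers, 8 were tested. By the adjusted p of limma 3 rose and 0 fell, beside 16.3% and 10.5% of all tested genes. The counts were 5 and 1 at an unadjusted p under 0.05, and 4 and 1 by limma voom. The summed FPKM of the list was 216.2 to 221.9 over the 4 libraries with none at 0. The risers were GYPB and AHSP, by 1.66 and 1.25 on the log2 scale, and RHAG by 0.30. Of these 3, 0 passed without TF1-BA replicate 1, 0 without TF1-BA replicate 2 and 1 without TF1-BAR replicate 2. RHAG also missed the test with no filter on low values (adjusted p = 0.0779) and with one spread for all levels (adjusted p = 0.0788). GYPB belongs to a multigene family whose reads can be split between copies, so its value is uncertain, and it was 1.19 with a pseudocount of 1 FPKM, 2.56 with 0.1 FPKM and 2.87 by limma voom. TFRC and KLF1, the most abundant of the list with RHAG, had log2 fold changes of -0.03 (adjusted p = 0.845) and -0.34 (adjusted p = 0.0519), and TFRC was at 0.04 when FPKM were rescaled to TPM. KLF1 passed with upper-quartile scaling (adjusted p = 0.0426), with a mean FPKM of at least 1 (adjusted p = 0.0416) and by limma voom (adjusted p = 0.0113). Of 9 monocyte and macrophage markers, 6 had a row and 2 were tested, with a summed FPKM of 14.2 to 18.5. CSF1R rose by 1.25 (adjusted p = 0.0124), or by 0.88 with a pseudocount of 1 FPKM, 1.96 with 0.1 FPKM and 2.32 by limma voom. Its adjusted p was 0.0721 without TF1-BA replicate 1, 0.0641 without TF1-BA replicate 2 and 0.0629 without TF1-BAR replicate 2. In the same list LYZ had a log2 fold change of 0.16 (adjusted p = 0.209), FCGR1A, the third in abundance, lay at 0.0924 to 0.275 FPKM and was under the limit for testing, and the defining markers CD14 and S100A9 had at most 1 fragment in any library. By the adjusted p, 4 of the 7 TF1 and BCR-ABL genes rose and 0 fell, beside 16.3% and 10.5% of all tested genes. The risers were KIT, CD34, BCR and ABL1, by 0.93 to 1.17 on the log2 scale. Reads of BCR and ABL1 can come from the introduced fusion or from the genes of the cell itself. Values per gene cannot tell these apart. CSF2RB had a log2 fold change of 0.27 (adjusted p = 0.0593) and passed on the TPM scale (adjusted p = 0.0312) and by limma voom (adjusted p = 0.0152). The part of these genes in the platelet gene values was not tested.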

How the data were processed

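Total RNA of 2 TF1-BA and 2 TF1-BAR libraries was sequenced as 150-bp paired ends. The authors mapped the reads to GRCh38 with TopHat2 2.0.13, ran Cufflinks 2.2.0 and Cuffdiff 2.2.0 by the submitters' processing notes, and deposited FPKM per gene and library, with no log transformation. The annotation release is not given in the sources used here. Groups and replicate numbers came from the sample labels.

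Differences in log2(FPKM + 0.5) were tested by limma 3.58.1 under R 4.3.3 (lmFit, eBayes with trend) over the 15519 genes whose mean FPKM was 0.5 or more, with Benjamini-Hochberg adjustment over all of them. The script was tested on simulated data with the same spread in both lines, so this does not cover lines of unequal spread. Whole fragments were recovered by finding library sizes and gene lengths that make every value whole within 0.002, for all 30853 genes above 0, of which 14296 at the exon length of GENCODE 44 and 16557 at a fitted length. With wrong sizes 0 of 300 genes were whole, but these were all drawn from genes whole at the exon length. The check thus did not cover fitted lengths, where counts may be off by a whole multiple. Recovered fragments summed to 100.2% of the size of each library. Fragment counts and the floor of 3 fragments cover counting error only. They were tested with limma voom only as an alternative. Of each pair of replicate libraries, counts differed beyond sampling noise (chi-square per degree of freedom 4.42 and 7.80). Gene symbols turned into dates (26) were restored from identifiers.

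The genes and lists were chosen with earlier results of these data known. Some genes of these lists are not reported here and were left out of the list counts and figures, but stayed in the fit. Named are the 10 genes, of each other list the genes past both thresholds and the 3 most abundant, genes beside each of the 10 in the table, and the 3 genes most like the most abundant and the most changed one. Others that passed the adjusted p, GP5, ITGB3 and the receptors at the low end, CD36 included, were named after their values were seen. The alternatives were other pseudocounts, filters, scalings and spreads, a replicate block, limma voom, and leaving out each library.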

Additional observations from a re-analysis of the deposited data

How the results depend on the processing

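The 14 alternatives reversed none of the 6 tested genes. Genes of the 10 past both thresholds numbered 1, and 2 with a pseudocount of 0.1 FPKM or limma voom on recovered fragments, where TUBB1 joined GP1BA. Those past the adjusted p alone numbered 5, then 3 without the trend and 1 with no filter on low values. Leaving out each library in turn gave 0 to 1 and 0 to 3. For all genes, 737 calls became 487 with a pseudocount of 1 FPKM, 1140 with limma voom, and 42 to 783 when 1 library was left out. The same omissions gave 0 to 5 of the other platelet genes in place of 4, and 0 to 3 of the chemokine cluster in place of 3.

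Genes near 0 changed sign. When FPKM were rescaled to TPM, FCER1G had a log2 fold change of 0.033 and TFRC of 0.043. TGFB1 was at -0.008 with upper-quartile scaling and ITGB3 at -0.027 with quantile normalization. With 1 library left out, FCER1G ranged from -0.10 to 0.030, TGFB1 from -0.067 to 0.10, FLNA from -0.069 to 0.14, TFRC from -0.10 to 0.050 and ITGB3 from -0.063 to 0.13. The cause of these changes was not tested, beyond the fewer libraries or genes that an alternative holds by construction.

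The replicate numbers are shared labels only, and deviations of same-numbered libraries correlated at 0.06 over 15519 genes. With a replicate block, 755 genes were called (487 higher, 268 lower), GP1BA had an adjusted p of 0.0102, 5 of the 6 tested genes passed the adjusted p, and no call of the 6 changed. Among genes of the other lists, KLF1 (adjusted p = 0.0266) and CSF2RB (adjusted p = 0.0409) passed with the block, and NFE2 (adjusted p = 0.0612) no longer did. Depth limits PPBP and VWF, at 0 to 27 fragments per library.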
